A study of Drosophila melanogaster with 10 samples.

Results

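The genes described here are escl and the other Polycomb group genes of a fixed list, in p53 mutant and wild-type fly embryos, with and without ionizing radiation. The list named 10 genes: escl, esc, E(z), Su(z)12, Pcl, Pc, Psc, ph-p, Scm and pho. The platform annotation gave a probe set of its own to 8 of them, out of 10844 genes with a named probe set on the array. All 8 passed the filter on dim probe sets, and ph-p and pho were not analysed here. The list was chosen by the role of its genes, with earlier results of these data known. At its head stands escl, which was selected on its higher signal in irradiated than in mock-treated wild-type embryos. Its values in that comparison are therefore a description and carry no test.

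Embryos of Drosophila melanogaster were gathered over the 2.5 h that followed egg laying, aged 2.5 h more at 25C, given 40 Gy of gamma rays or a mock treatment, and left 1.5 h to recover. There were 2 irradiated and 2 mock-treated arrays of the Dmp53NS strain, called mutant below, in which the fly p53 gene is mutated. There were 3 irradiated and 3 mock-treated wild-type (WT) arrays, of which 1 set was of the yw strain and 2 sets were of the w1118 strain. Each array carried total RNA of about 1 g of whole embryos, so that fewer cells of a type and less RNA per cell cannot be told apart. A set is 1 irradiated and 1 mock-treated collection. The series calls the sets biological replicates, and the labels name no separate parents. The yw set was hybridized on day 1, and days 2 and 3 each held 1 mutant and 1 w1118 set. Each day had a chip lot of its own, so hybridization day and chip lot cannot be told apart.

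Polycomb group proteins keep developmental genes silent by acting on chromatin. Polycomb repressive complex 2 (PRC2) methylates a histone lysine through its enzyme subunit E(z), and needs Su(z)12 and the WD-repeat protein esc beside it. escl is the paralogue of esc and can take its place in the complex. In fly development esc is known for its heavy maternal supply and early action, and escl for its later use. Pcl joins PRC2 as an accessory subunit. Pc, which binds the methylated histone through its chromodomain, and the RING-domain protein Psc belong to Polycomb repressive complex 1 (PRC1), and Scm is a partner protein that carries a SAM domain.

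Median signal per array was 63.3 to 108 in arbitrary units, and the number of arrays limits the precision of every value. RNA quality can be read from eIF-4a control probe sets at the 3′ and 5′ end of the transcript. Their 3′ over 5′ ratio reached 12.2 for irradiated w1118 embryos of day 3 and 5.92 for mock-treated mutant embryos of day 3, with 1.56 to 3.13 elsewhere. The p53 probe set (150416_at) read 212 and 104 in irradiated and 194 and 125 in mock-treated mutant embryos, against 505, 498 and 261 in irradiated and 243, 233 and 288 in mock-treated WT embryos. Where the probes lie relative to the mutation is unknown here, so these values check nothing about the labels. Of 25 marker genes of embryonic and adult cell types with a named probe set, 22 passed the filter and 0 were listed at 0. The 22 include all 5 listed markers of embryonic ectoderm and nervous system. They also include 3 of the 5 markers of adult ovary and fat body with a probe set. Passing the filter therefore does not tell embryonic from adult tissue.

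In WT embryos escl was the only one of the 8 genes whose irradiated and mock-treated arrays did not overlap. Its probe set (141521_at) read 1982 in irradiated yw embryos and 965 and 1570 in irradiated w1118 embryos, against 429 in mock-treated yw and 329 and 557 in mock-treated w1118 embryos. Every irradiated WT array was thus above every mock-treated one. The means were 1505 ± 511 in irradiated and 438 ± 114 in mock-treated WT embryos (SD, n = 3 each). On the log2(signal + 14.6) scale the change was 2.17 in the yw set, 1.51 in the first and 1.47 in the second w1118 set, each on its own hybridization day. The fitted change was 1.72 (SE 0.23), or 3.29-fold, which ranked 11 among the 8379 probe sets from the highest. Of the 8 genes 1 passed limma's test in irradiated WT embryos, escl itself, against 0.239% of all probe sets. Since that contrast put escl on the list, nothing is read from the count. Of all probe sets 2.89% had every irradiated WT array above every mock-treated one, 2.57% had every one below, and 5.45% one or the other. With the w1118 set of day 3 left out, whose irradiated array has the ratio of 12.2, the change of escl was 1.84, and with the yw set left out it was 1.49. Without the pairing of the sets, or without a variance trend, escl did not pass in WT embryos.

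esc, the paralogue, showed no such separation. Its probe set (141561_at) read 874 (yw), 732 and 566 (w1118) in irradiated WT embryos, against 657 (yw), 678 and 702 (w1118) in mock-treated ones. The irradiated arrays lay on both sides of the mock-treated ones. Its changes per set were 0.40, 0.11 and -0.30 log2, and the fitted change was 0.07 (SE 0.23). Set by set, the change of escl exceeded that of esc by 1.77 log2 in yw and by 1.40 and 1.77 log2 in the w1118 sets.

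**Figure D1:**
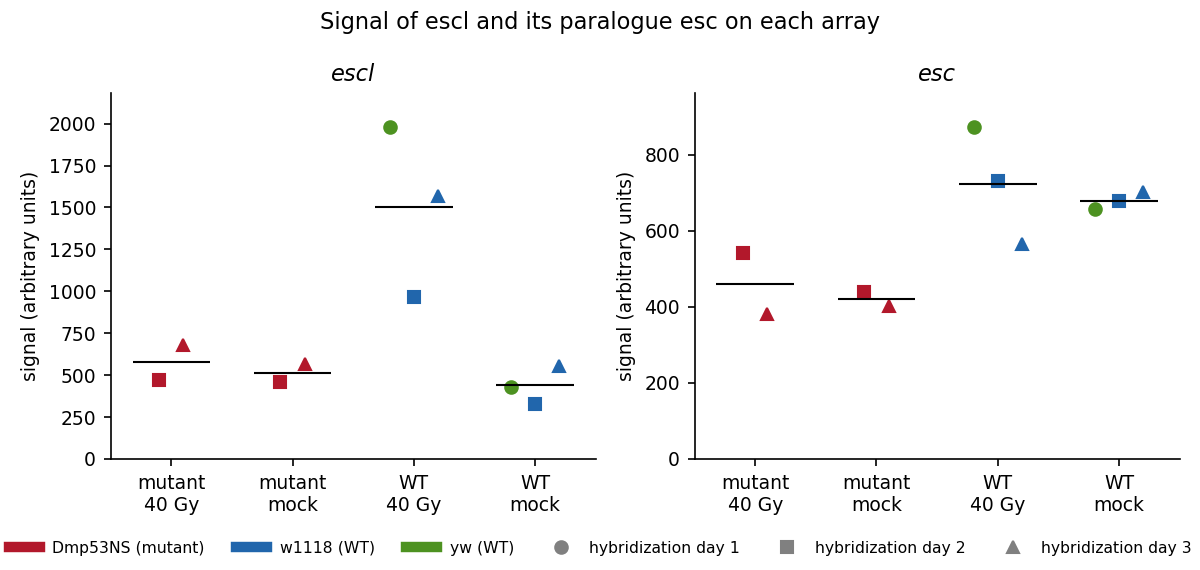
Signal of escl (left panel) and esc (right panel) on each of the 10 arrays, in arbitrary units from 0, by genotype and treatment. Points are arrays, coloured by strain and shaped by hybridization day, and lines are group means. The 3 irradiated WT arrays of escl lie between 965 and 1982, above all 7 others, which lie between 329 and 681. For esc the 4 mutant arrays lie between 381 and 541, below the 6 WT arrays.

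In mutant embryos escl did not pass the test after irradiation. It read 473 and 681 in irradiated and 458 and 565 in mock-treated mutant embryos, so the groups overlapped. Its changes were 0.04 log2 in the set of day 2 and 0.26 in the set of day 3. The fitted change was 0.15 (95% interval -0.43 to 0.74; limma adjusted p = 1.00). The WT sets had no part in this value except through the shared estimate of the spread. Mutant minus WT, the irradiation change of escl was -1.56 log2 (SE 0.36), and it was -1.34 (SE 0.46) when only the w1118 sets of the same days were set against the mutant. The WT side of both values chose the gene, so no test is given for them. Of the 7 other genes 0 passed in the comparison within days, against 0.0477% of all probe sets. On day 2 the change was 0.04 log2 in the mutant and 1.51 in w1118, and on day 3 it was 0.26 in the mutant and 1.47 in w1118.

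Over all conditions the irradiated WT groups had the highest levels of escl. Irradiated yw stood highest with 1982 (n = 1), followed by irradiated w1118 with 1267 ± 428 (SD, n = 2). The next were irradiated mutant embryos with 577 ± 147 and mock-treated mutant embryos with 512 ± 76.2 (SD, n = 2 each), mock-treated w1118 embryos with 443 ± 161 (SD, n = 2) and mock-treated yw embryos with 429 (n = 1). Neighbours among those last 4 groups differed by less than their spread. The levels of esc had another order: irradiated yw was highest with 874 (n = 1), and the mutant groups were lowest, with 461 ± 113 in irradiated and 421 ± 25.1 in mock-treated embryos (SD, n = 2 each).

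E(z), the methyltransferase (154532_at), read 732 and 502 in irradiated and 499 and 770 in mock-treated mutant embryos. In WT embryos it read 565 (yw), 547 and 484 (w1118) after irradiation and 664 (yw), 538 and 578 (w1118) without. Its groups overlapped in both genotypes. The fitted change of E(z) was -0.03 log2 in mutant (95% interval -0.66 to 0.60; limma adjusted p = 1.00) and -0.15 in WT embryos (SE 0.25).

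Su(z)12, the zinc finger subunit (141612_at), read 346 and 230 in irradiated and 263 and 466 in mock-treated mutant embryos. In WT embryos it read 111 (yw), 359 and 491 (w1118) after irradiation and 139 (yw), 381 and 551 (w1118) without. The difference of irradiated over mock-treated arrays was -0.29, -0.08 and -0.16 log2 in the WT sets, and 16% of all probe sets were lower in each of the 3 sets. The wide gap lay between the strains. Its mutant sets went opposite ways, at 0.38 and -0.98 log2 (fitted change -0.30, 95% interval -1.01 to 0.42; limma adjusted p = 1.00).

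Pcl, the accessory subunit (141767_at), read 453 and 201 in irradiated and 313 and 307 in mock-treated mutant embryos. In WT embryos it read 403 (yw), 629 and 585 (w1118) after irradiation and 355 (yw), 607 and 268 (w1118) without. It was higher in each of the 3 WT sets, as were 15.4% of all probe sets, and most of its fitted change of 0.44 log2 (SE 0.28) came from the w1118 set of day 3 (1.08 log2, against 0.17 and 0.05 in the other sets). That set holds the irradiated array with the 3′ over 5′ ratio of 12.2, whose part in this value was not tested. In the mutant the sets of Pcl gave 0.51 and -0.57 log2 (fitted change -0.03, 95% interval -0.74 to 0.68; limma adjusted p = 1.00).

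**Figure D2:**
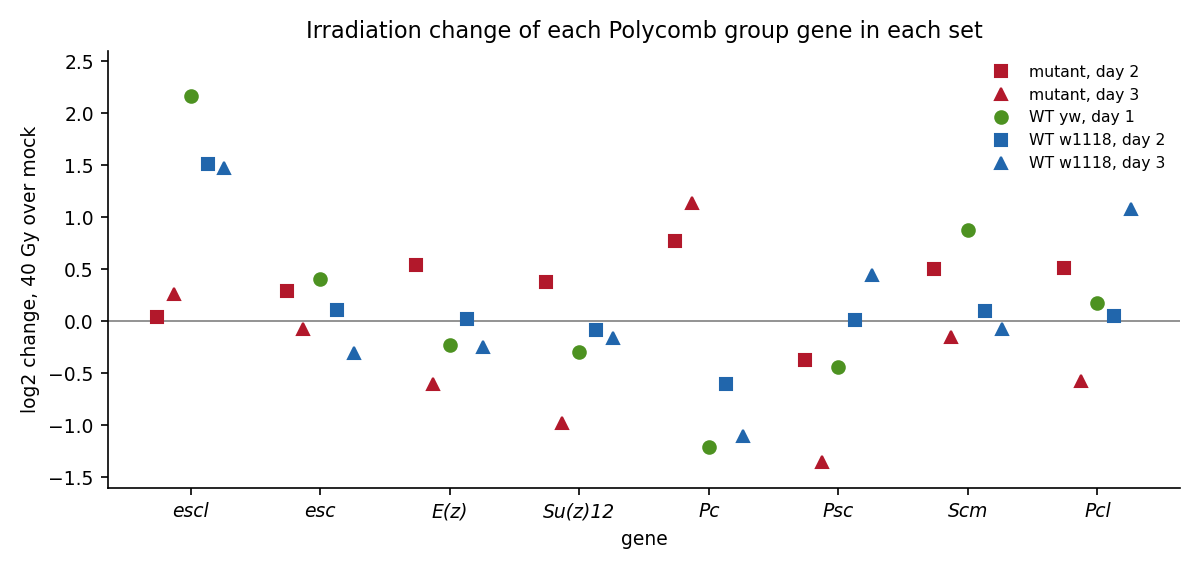
Log2 change, 40 Gy over mock, of each of the 8 Polycomb group genes in each of the 5 sets, coloured by strain and shaped by hybridization day. escl lies between 1.47 and 2.17 in the 3 WT sets and at 0.04 and 0.26 in the mutant sets, and Pc lies between -1.21 and -0.61 in WT and at 0.77 and 1.14 in the mutant.

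Among the PRC1 genes, the irradiation change of Pc had opposite signs in mutant and WT embryos. Its probe set (143294_at) read 457 and 73.5 in irradiated and 262 and 25.4 in mock-treated mutant embryos. In WT embryos it read 143 (yw), 293 and 18.8 (w1118) after irradiation, against 348 (yw), 454 and 57.2 (w1118) without. Pc was higher after irradiation in both mutant sets, by 0.77 and 1.14 log2, and lower in all 3 WT sets, by -1.21, -0.61 and -1.10 log2. Such a split between all sets of the genotypes occurred in 5.63% of all probe sets, and 33.3% had the same direction in both mutant sets, as escl, Pc and Psc did. The fitted change was 0.96 log2 in mutant (95% interval 0.17 to 1.75; limma adjusted p = 1.00) and -0.97 in WT embryos (SE 0.31). Mutant minus WT, it was 1.93 log2 (SE 0.49), the 9th highest of 8379 probe sets, and it did not pass (limma adjusted p = 0.448, 0.249 to 1.00 over the alternatives). All 4 arrays of day 3 read 18.8 to 73.5 for Pc, below the 6 other arrays, which read 143 to 457, and 5.04% of all probe sets had the day 3 arrays below all others in this way. The directions stood within each day that held both genotypes: 0.77 log2 in the mutant and -0.61 in w1118 on day 2, and 1.14 in the mutant and -1.10 in w1118 on day 3.

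Psc, the RING-domain subunit (143558_at), read 421 and 222 in irradiated and 550 and 590 in mock-treated mutant embryos. In WT embryos it read 314 (yw), 704 and 640 (w1118) after irradiation and 432 (yw), 698 and 466 (w1118) without. The mutant groups did not overlap, which was so for 14.7% of all probe sets, and 14.2% were lower in both mutant sets. Its fitted change in the mutant was -0.86 log2 (95% interval -1.52 to -0.20; limma adjusted p = 1.00), made of -0.37 and -1.36 in the 2 sets, and it was 0.01 in WT embryos (SE 0.26). The change of -1.36 is that of day 3, whose mock-treated mutant array has the 3′ over 5′ ratio of 5.92. The part of that array in this value was not tested. Mutant minus WT the change of Psc was -0.87 log2 (SE 0.41, limma adjusted p = 1.00).

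Scm, the SAM-domain partner (143335_at), was the dimmest of the 8 genes by mean signal. It read 159 and 108 in irradiated and 108 and 122 in mock-treated mutant embryos. In WT embryos it read 192 (yw), 174 and 269 (w1118) after irradiation and 98.0 (yw), 162 and 284 (w1118) without. The groups overlapped in both genotypes. The fitted change of Scm was 0.18 log2 in mutant (95% interval -0.62 to 0.98; limma adjusted p = 1.00) and 0.30 in WT embryos (SE 0.31).

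**Figure D3:**
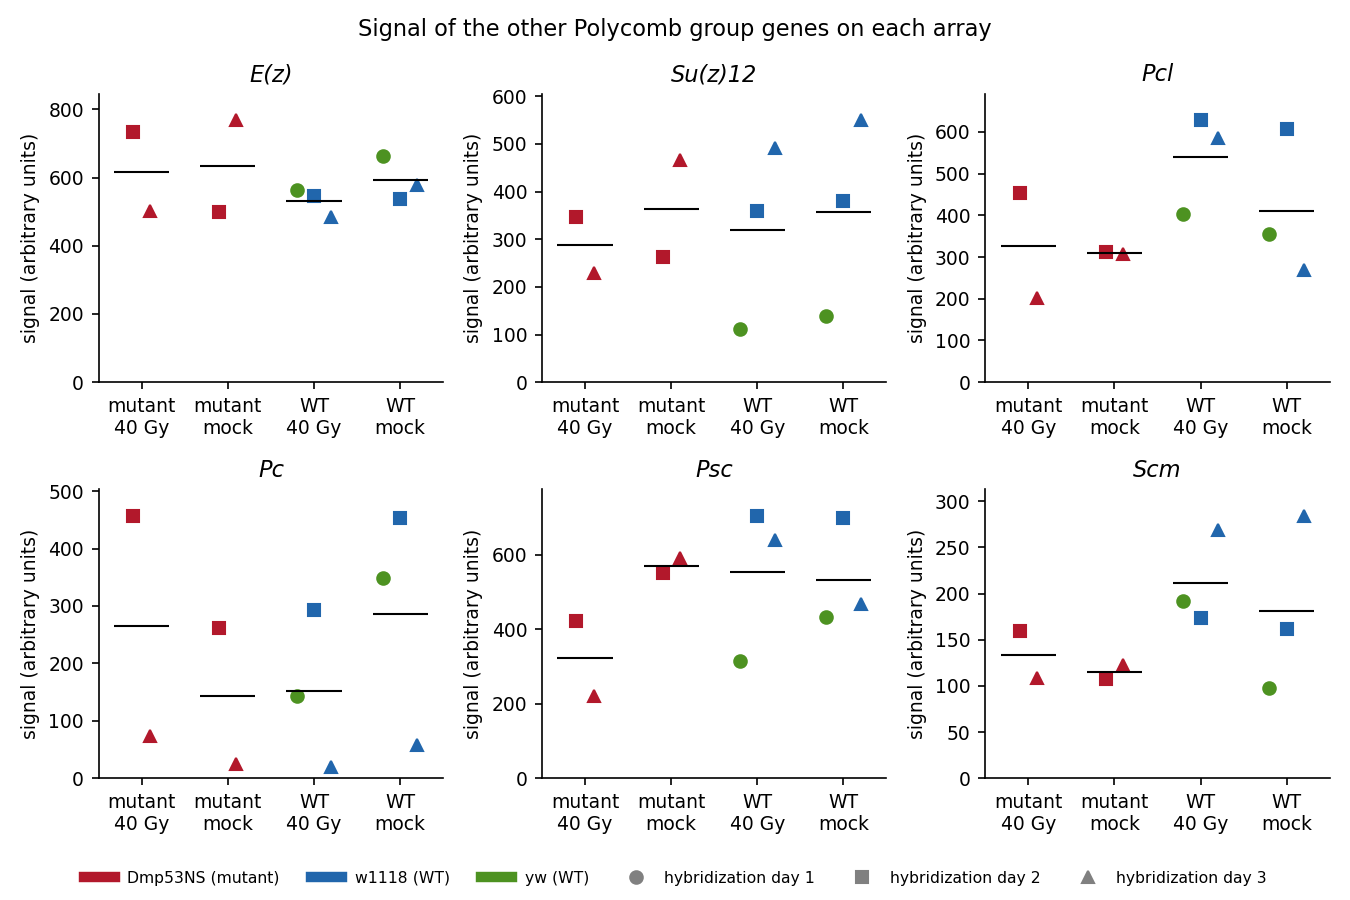
Signal of E(z), Su(z)12, Pcl, Pc, Psc and Scm on each of the 10 arrays, in arbitrary units from 0, by genotype and treatment. Points are arrays, coloured by strain and shaped by hybridization day, and lines are group means. The day 3 arrays of Pc lie between 18.8 and 73.5, and the yw arrays of Su(z)12 at 111 and 139.

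The median irradiation change of the 8 genes lay close to that of all probe sets. It was 0.04 log2 in mutant embryos, against 0.02 over all probe sets, and 0.04 in WT embryos, against -0.01 over all probe sets (0.01 for the 7 genes without escl). In irradiated mutant embryos 0 of the 8 passed limma's test, against 0% of all probe sets, and 2 of the 8, Pc and Psc, had an unadjusted p under 0.05, against 1.61% of all probe sets. For the difference between genotypes 0 of the 7 genes other than escl passed, against 0.0119% of all probe sets, and 2 of them, Pc and Psc, had an unadjusted p under 0.05, against 3.37% of all probe sets. The differences of esc, E(z), Su(z)12, Pcl and Scm lay between -0.47 and 0.12 log2.

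Without irradiation esc was lower in every mutant array than in any WT array. It read 438 and 403 in mock-treated mutant embryos, against 657, 678 and 702 in mock-treated WT embryos, and with irradiation included all 4 mutant arrays lay below all 6 WT arrays. Of all probe sets 6.23% had the mutant arrays below all WT arrays in this way, 14.4% had no overlap in either direction, and 36.1% had none among the mock-treated arrays. The fitted difference, mutant minus WT (the mean of yw and w1118) without irradiation, was -0.70 log2 (SE 0.28), or 1.63-fold lower, and did not pass (limma adjusted p = 0.138). Against w1118 within hybridization days it was -0.70 (SE 0.27, limma adjusted p = 0.0900), where 0 of the 8 genes and 14.4% of all probe sets passed. escl, by contrast, differed by 0.18 log2 (95% interval -0.57 to 0.93; limma adjusted p = 0.744). Of the 8 genes 0 passed in the comparison without irradiation, against 6.55% of all probe sets, and 1 of them, esc, had an unadjusted p under 0.05, against 28.2% of all probe sets. Their median was -0.11 log2 against -0.20 over all probe sets. The other differences ran from -1.27 for Pc (SE 1.07, limma adjusted p = 0.446) to 0.45 for Su(z)12 (SE 0.36, limma adjusted p = 0.425).

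Some markers of embryo stage and tissue moved with the genotype too. The summed signal of 3 maternal transcripts (bcd, osk and CycB, of 5 listed) was 9171 to 11462 in irradiated and 9073 to 13448 in mock-treated mutant embryos, against 5669 to 7830 in irradiated and 7121 to 8570 in mock-treated WT embryos. The sum of the mesoderm markers twi and sna, of 4 listed, was 1228 to 1909 in irradiated and 1527 to 1648 in mock-treated mutant embryos, against 2448 to 3604 in irradiated and 2010 to 3221 in mock-treated WT embryos. CycB gave most of the maternal sum, with a mean signal of 7934, against 544 for bcd and 87.1 for osk. The germ line sum (vas, pgc and zpg) was 146 to 174 in irradiated and 152 to 160 in mock-treated mutant embryos, against 383 to 553 in irradiated and 299 to 387 in mock-treated WT embryos. The sum of the blood cell markers crq, Pxn and gcm was 419 to 680 in irradiated and 498 to 573 in mock-treated mutant embryos, against 825 to 919 in irradiated and 932 to 1120 in mock-treated WT embryos. sna gave most of the mesoderm sum, with a mean signal of 1939, against 386 for twi. gcm gave most of the blood sum, with 587, against 106 for crq and 82.3 for Pxn. In the germ line sum vas, at 32.2, was below the filter. These 4 sums separated the genotypes without overlap, and 14.4% of all probe sets did so singly. Sums led by 1 gene need not stand for a whole tissue. The sums of ectoderm and nervous system, yolk and endoderm, and ovary and fat body markers overlapped between genotypes, as did the late marker elav. The part of stage and tissue in the difference of esc, or in those of crm, psq and Set2 given below, was not tested.

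The comparison of the WT strains turned up Su(z)12. It was lower in yw embryos, at 111 irradiated and 139 mock-treated, than in w1118 embryos, at 359 and 491 irradiated and 381 and 551 mock-treated. The fitted difference, yw minus w1118, was -1.71 log2 (SE 0.37, limma adjusted p = 0.0285), or 3.26-fold lower, and both yw arrays lay below all 4 w1118 arrays, as they did for Psc and for 19.2% of all probe sets. With the w1118 set of day 3 left out the difference was -1.47 and did not pass (limma adjusted p = 0.0785). The yw arrays were the only ones of day 1, so strain and hybridization day cannot be told apart, and 42.6% of all probe sets had yw and w1118 arrays that did not overlap. Su(z)12 was the one gene of the 8 to pass, against 5.78% of all probe sets in either direction and 2.78% lower in yw. Psc (-0.73 log2, SE 0.36, limma adjusted p = 0.226) and Scm (-0.60, SE 0.40, limma adjusted p = 0.375) did not pass, nor did escl (0.34, SE 0.35, limma adjusted p = 0.574) or esc (0.18, SE 0.29, limma adjusted p = 0.732).

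**Figure D4:**
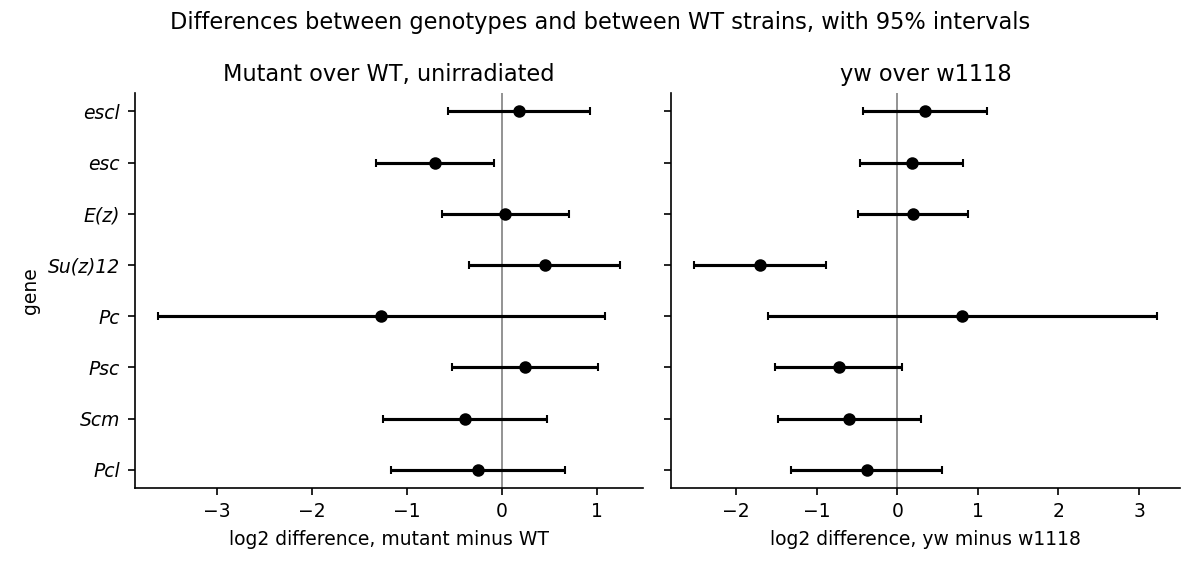
Fitted log2 differences of the 8 Polycomb group genes, mutant minus WT without irradiation (left panel) and yw minus w1118 (right panel), with 95% intervals from limma. In the left panel esc stands at -0.70 and escl at 0.18; in the right panel the interval of Su(z)12, centred on -1.71, is the one that stays clear of 0.

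Other genes of the Polycomb system were read from a wider list of 18, of which 14 had a named probe set and passed the filter. In irradiated mutant embryos 0 of the 14 passed limma and 0 had an unadjusted p under 0.05, against 1.61% of all probe sets with one. In irradiated WT embryos 0 passed, against 0.239% of all probe sets, and 1 of the 14 had an unadjusted p under 0.05, against 8.14% of all probe sets. The median change was -0.07 log2 in mutant and 0.07 in WT embryos. Their extremes in WT embryos were phol, a paralogue of the DNA-binding gene pho, at -0.95 log2 (SE 0.32, limma adjusted p = 0.355) and Asx, a subunit of the histone deubiquitinase complex, at 0.53 (SE 0.37, limma adjusted p = 0.776). The change of phol was -1.59, -0.38 and -0.89 log2 in the WT sets, and that of Asx was -0.78, 0.78 and 1.59. The last of these sets holds the irradiated array with the 3′ over 5′ ratio of 12.2, and without that set the change of Asx was -0.0023. Without irradiation 2 of the 14 were higher in mutant embryos, crm (1.67 log2, SE 0.39, limma adjusted p = 0.0344) and the DNA-binding protein gene psq (1.35, SE 0.34, limma adjusted p = 0.0432), against 4.42% of all probe sets. That count was 0 to 4 over the alternatives. An unadjusted p under 0.05 was reached by 4 of the 14 in this comparison, against 28.2% of all probe sets. The median of the 14 was 0.41 log2 there, against -0.20 over all probe sets. crm read 459 and 424 in mock-treated mutant embryos, against 109, 152 and 135 in mock-treated WT embryos. psq read 926 and 454 in mock-treated mutant embryos, against 278, 238 and 220 in mock-treated WT embryos. Within hybridization days both passed against w1118 (crm 1.53 log2, limma adjusted p = 0.00615; psq 1.45, limma adjusted p = 0.00412). In that comparison 8.26% of all probe sets passed as higher in the mutant. The call of crm ended without the yw set (limma adjusted p = 0.160), without the w1118 set of day 3 (0.0616) and without either mutant set (0.145 and 0.0682). That of psq ended without the yw set (limma adjusted p = 0.118), without either w1118 set (0.0797 and 0.0893) and without the mutant set of day 2 (0.309, at 0.85 log2), and also with no filter on dim probe sets (0.0591) or no variance trend (0.0552).

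The trithorax group works against Polycomb silencing, and 13 of its 15 listed genes were tested. In irradiated mutant embryos 0 passed, against 0% of all probe sets, and the median was -0.11 log2. An unadjusted p under 0.05 was reached there by 0 of the 13, against 1.61% of all probe sets. In irradiated WT embryos 0 of the 13 passed limma, against 0.239% of all probe sets, while 3 of them reached an unadjusted p under 0.05, against 8.14% of all probe sets. They had a median of -0.17 log2 and a range from -0.67 for Trl, which encodes GAGA factor, to 0.74 for the chromatin remodeller gene kis (SE 0.24, limma adjusted p = 0.349). The change of kis came mostly from the w1118 set of day 3 (1.58 log2, against 0.27 in yw and 0.37 in the w1118 set of day 2). That set holds the irradiated array with the 3′ over 5′ ratio of 12.2, and without that set the change of kis was 0.32. Between the WT strains ash2, a subunit of histone methyltransferase complexes, was the 1 gene of the 13 to pass. It was lower in yw (-1.08 log2, SE 0.27, limma adjusted p = 0.0454), where 2.78% of all probe sets were lower. The count of trithorax genes that passed was 0 to 3 over the alternatives. Strain and hybridization day cannot be told apart here, since the yw arrays were the only ones of day 1. The call of ash2 did not hold without either w1118 set (limma adjusted p = 0.0972 and 0.106) or either mutant set (0.0680 and 0.0744), nor with hybridization day as the random block (0.0515), no variance trend (0.0562) or a filter at the 60th percentile (0.0555).

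Of 12 listed target genes of Polycomb silencing 7 had a named probe set and 5 passed the filter: Dfd, Antp, en, inv and eve. None of the 5 passed limma in irradiated mutant embryos (range -0.53 to 0.06 log2, median -0.40) or in irradiated WT embryos (range -0.46 to 0.25, median -0.35), and 0 of them had an unadjusted p under 0.05 in either. Of 8 other histone methyltransferase genes 3 were tested, and 0 passed for irradiation in either genotype, or had an unadjusted p under 0.05. Of all probe sets 0% passed in irradiated mutant and 0.239% in irradiated WT embryos. An unadjusted p under 0.05 was reached by 1.61% and 8.14% of them, so counts of 0 say little in lists this small. Set2, the methyltransferase that travels with elongating RNA polymerase, was higher in mock-treated mutant embryos, at 1095 and 503, than in mock-treated WT embryos, at 166, 335 and 245. That difference was 1.74 log2 (SE 0.36, limma adjusted p = 0.0246), and within hybridization days against w1118 it was 1.33 (limma adjusted p = 0.00753). Within days 8.26% of all probe sets passed as higher in the mutant. The call of Set2 ended without the yw set (1.33 log2, limma adjusted p = 0.180), without the w1118 set of day 3 (1.59, 0.0520) and without the mutant set of day 2 (1.19, 0.199). It was 1 of the 3 genes, against 4.42% of all probe sets higher in the mutant.

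The gene closest to escl in pattern over the 10 arrays was Irbp18, which encodes a bZIP protein (Pearson r = 0.94 of log2 values). It was followed by CG15484 (r = 0.93), CG10916 (r = 0.92), Prosbeta2R2, a proteasome beta-subunit relative (r = 0.91), and CG7299 (r = 0.90), out of 6848 genes. Irbp18 read 248 to 513 where escl was high and no more than 211 elsewhere. Its values were 130 and 211 in irradiated and 80.6 and 179 in mock-treated mutant embryos, and 449 (yw), 248 and 513 (w1118) in irradiated against 94.6 (yw), 101 and 203 (w1118) in mock-treated WT embryos. The irradiation changes of the 5 genes ran from 0.03 to 0.41 log2 in mutant and from 0.75 to 2.42 in WT embryos. They were picked by likeness to escl over the same arrays, so a larger change in WT embryos was built into the choice. These correlations describe 10 arrays that share groups and days. Among the Polycomb group genes Scm was the nearest to escl (r = 0.49, place 622), then esc (r = 0.34, place 1470), and Pc was the farthest (r = -0.46).

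esc and escl lie on the same chromosome arm with 28 genes between them in the Release 6 gene table. Of those 28 genes 3 were tested, their WT changes ran from -0.68 to 0.33 log2, and 0 passed. The gene next to escl on one side is dgt2, a subunit gene of the augmin complex of the mitotic spindle, and the annotated spans of dgt2 and escl overlap. In the mutant the change of dgt2 (146263_at) was 0.33 log2 on day 2 and -0.59 on day 3. dgt2 read 1443 (yw), 920 and 1372 (w1118) in irradiated WT embryos, against 742 (yw), 643 and 1089 (w1118) in mock-treated ones. It was higher in all 3 WT sets, by 0.95, 0.51 and 0.33 log2, as were 15.4% of all probe sets. Its fitted change of 0.59 (SE 0.24) did not pass (limma adjusted p = 0.464). The next gene on that side, the piRNA pathway gene zuc, had a change of 0.09 log2 in WT embryos (SE 0.31). Next to esc lies Pde1c, a phosphodiesterase gene whose span overlaps that of esc and whose probe set was too dim to be tested. One gene further on that side, the cyclin gene CycY had a change of -0.81 log2 in WT embryos that did not pass (SE 0.34, limma adjusted p = 0.497). It was -0.64 in the yw set and 0.22 and -2.01 in the w1118 sets. The value of -2.01 is from the set whose irradiated array has the 3′ over 5′ ratio of 12.2.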

How the data were processed

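Gene expression in embryos was measured on Affymetrix DrosGenome1 arrays. The authors deposited 1 signal intensity per probe set and array on a linear scale; the submitters' processing notes name MAS5. Detection calls were not used here. The trimmed mean (2% off each end) of the deposited intensity was 249.4 to 249.84, so arrays came scaled, and setting it to one value moved them by almost nothing. Hybridization days come from the run records, per the file headers.

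Of 14010 probe sets, 44 Affymetrix controls were dropped. Of the rest, 12443 had 1 gene symbol in the platform annotation, 327 several and 1196 none. A pseudocount of 14.6, the 20th percentile of signal, was added before log2, which understates changes of dim genes. The filter kept the 8379 probe sets whose mean signal exceeded 53.4 (the 40th percentile).

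limma 3.58.1 (R 4.3.3) gave irradiation changes and their difference between genotypes from one model of the 10 arrays, in which each irradiated and mock-treated pair formed a fixed block. Its variance had a trend, 3 residual and 18.04 prior degrees of freedom. The series describes the pairs. Within a pair, deviations from group means correlated at 0.428 to 0.652. Pairs of a genotype also differ in hybridization day, and WT pairs in strain, so this correlation does not by itself show pairing of collections. The values of the mutant pairs are equal by construction. Strain differences came from a second model with the pair as random block (correlation 0.20; 5 residual and 5.73 prior degrees of freedom). P-values are two-sided, adjusted by Benjamini-Hochberg over all 8379 probe sets, with 0.05 as the threshold. On simulated data with independent noise, the first model returned on average the irradiation changes put in. The second model returned a genotype difference added to the same values, which its linear form returns in any case. These runs check the computation, and not how well either model suits these data.

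The genes and the context lists were chosen with earlier results of these data known. All listed Polycomb genes are named. From context lists, genes that passed or stood at an end are named, with the 5 genes most correlated with escl and the genes next to escl and esc. Gene order came from the RefSeq Release 6 table, which held 12394 of the named probe sets' gene IDs. Alternatives are given in the closing section.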

Additional observations from a re-analysis of the deposited data

Results flagged for a closer look

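Pc stood out because its irradiation change had opposite signs in the genotypes, higher in both mutant sets and lower in all 3 WT sets. The difference, mutant minus WT, was 1.93 log2 (SE 0.49) and did not pass limma's test (adjusted p = 0.448). On day 3 its signal was 18.8 to 73.5, beside a pseudocount of 14.6.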

How the results depend on the processing

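The change of escl was 0.04 to 0.26 log2 in mutant and 1.49 to 1.84 in WT embryos over the alternatives, and its difference between genotypes was -1.69 to -1.34. Of the 8 genes, 1 passed in WT embryos with a fixed or random replicate block, against 0 with no replicate block and 0 with no variance trend. The 1 gene was escl, which that contrast had put on the list, so nothing is read from these counts. With no replicate block the change of escl was still 1.72 log2 in WT embryos, and no other count among the 8 genes changed. Between strains the count was 0 to 1 when 1 set was left out, with 0 without the w1118 set of day 3. The Polycomb gene values that changed sign passed the threshold neither before nor after the change, each in its own comparison. In WT embryos esc was -0.0975 without the yw set, and Psc was -0.21 without the w1118 set of day 3 and -0.032 with quantile normalization. Leaving out 1 set gave mutant changes of -0.078 to 0.30 for esc, -0.60 to 0.54 for E(z), -0.98 to 0.38 for Su(z)12, -0.15 to 0.51 for Scm and -0.57 to 0.51 for Pcl. It gave differences between genotypes of -0.15 to 0.23 for esc, -0.45 to 0.69 for E(z), -0.80 to 0.56 for Su(z)12, -0.45 to 0.21 for Scm and -1.01 to 0.076 for Pcl. Mutant minus WT without irradiation it gave -0.27 to 0.34 for E(z), -0.37 to 0.85 for Su(z)12, -2.66 to 0.13 for Pc, -0.0036 to 0.33 for Psc and -0.56 to 0.0037 for Pcl. For yw minus w1118 it gave -0.015 to 0.70 for escl and -0.67 to 2.29 for Pc. Quantile normalization gave 0.021 for the mutant change of E(z) and -0.0733 for its difference without irradiation. The irradiation term per hybridization day gave 0.17 for the difference of Scm, and w1118 alone with day as a fixed block gave -0.37 for Su(z)12 and -0.0036 for Psc. The cause of these shifts was not tested. Over all probe sets, calls in irradiated WT embryos numbered 20, against 3 with no variance trend and 41 without the w1118 set of day 2. Calls without irradiation, mutant against WT, numbered 549, against 0 without the mutant set of day 2 and 1207 against w1118 alone. Calls between strains numbered 484, against 182 without the mutant set of day 3 and 1743 with no filter on dim probe sets.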
